A study of Mus musculus with 83 samples.

Results

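The effect of indole-3-acetic acid (IAA) on Pol II occupancy was estimated once over 24 CUT&Tag libraries of mouse embryonic stem cells (mESCs) whose TATA-box binding protein (TBP) carries a degron. These are all the Pol II libraries in the deposited count tables, taken from a series of 83 samples and joined by gene name. Of these, 12 received IAA and 12 did not, and they fall into 6 contexts of 4 libraries each, with 2 libraries in each arm. In CUT&Tag an antibody holds a transposase at its target, and the adapters it inserts mark where the target sat.

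C64 cells, derived from the JM8.N4 line, carry the minimal auxin-inducible degron on both copies of TBP, and H3.3 is tagged with GFP in all the lines. By the study's table of resources, C64 cells also carry a HaloTag at the C-terminus of the largest Pol II subunit, as do B8 cells made from them. B8 cells are C64 cells in which the whole of Tbpl1, which encodes the TBP paralog TRF2, is deleted. They were grown from a single colony, so that the deletion cannot be told apart from that clone. In run 2, C64 cells had no IAA or 500 µM IAA for 6 h, and further C64 cells of that run received a heat shock of 30 min at 42 °C without IAA or after 6 h of 500 µM IAA, which stayed on during the shock. In run 3, C64 cells had no IAA or 500 µM IAA for 16 h. Further C64 cells of that run received retinoic acid for 16 h (25 µM by the labels), alone or with 500 µM IAA. B8 cells had no IAA or 500 µM IAA for 6 h in run 6 and again in run 8. The study's figure legends give DMSO as the control treatment of C64 cells. None of the libraries came from cells that had IAA without the degron, so that loss of TBP and IAA itself cannot be told apart. Duration and cell line likewise cannot be told apart from run in comparisons between contexts.

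TBP is the DNA-binding subunit of TFIID and also takes part in initiation by Pol I and Pol III. At Pol II promoters it binds and bends the TATA box or the matching upstream stretch, after which TFIIA, TFIIB and the polymerase assemble. Many promoters of genes that every cell uses lack a TATA box, while genes of ribosomal proteins and of snoRNA hosts often start within a run of pyrimidines.

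Counts per library ranged from 900651 to 5056322, and 17873 of the 27752 joined genes had enough counts to be tested. Replicate libraries had a Pearson's r of log2 CPM (counts scaled to the library's total with TMM factors) of 0.902 to 0.976 across genes, the lowest being that of B8 control in run 6, where replicate 2 had 11.8% of its counts in genes absent from the C64 tables against 4.34 to 6.42% in the other B8 libraries. Tbpl1 stood at 6.18 to 15.8 CPM in the C64 libraries and at 0 to 4.34 CPM in those of B8, with no overlap. Pou5f1 and Nanog, which mark pluripotent cells, had medians of 10.9 and 10.0 CPM in C64 and of 10.9 and 9.58 CPM in B8. Per kb of gene, 33 pluripotency genes had a median of 2.78 CPM and 25 markers of mesoderm, endoderm and neural cells a median of 2.37 CPM, beside 1.16 CPM for all genes tested. Markers of differentiated cells were thus not near 0 in this measure. The study calls its libraries biological replicates, while the labels do not say whether they were separate cultures, and the p-values measure the spread between these libraries.

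Over all 6 contexts, Pol II fell over 131 genes after IAA (0.733% of those tested) and rose over 13 (0.0727%), at an adjusted p under 0.05 in edgeR's quasi-likelihood test with context as a block. Both directions together made up 0.806% of the genes. At an unadjusted p under 0.05, 1141 genes were lower and 642 higher. Changes were small: the median shared log2 fold change of the genes that fell was -0.56, only 14 fell by at least 2-fold and none rose by as much. The standard error of a gene's shared effect had a median of 0.13. These values are relative to the other genes, because TMM scaling removes a change that all genes share, and Pol II lost in a part of the cells cannot be told apart from less Pol II in each cell. The count of genes that fell was 53 without B8 run 8, 72 without C64 run 3 and 85 without C64 run 2, and it was 83 without replicate 1 of B8 control in run 6 and 86 without replicate a of B8 IAA in run 8. Leaving out B8 run 8 together with replicate 2 of B8 control in run 6 gave 62 genes lower and 2 higher. With the replicate numbers of run 3 as a block 259 genes fell (1.45%) and 32 rose (0.179%), including all 131 and 13.

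The largest fall was at 1110038B12Rik, a non-coding gene that hosts snoRNAs (chromosome 17, 34950238 to 34952471, mm10). Its level was 107 and 51.6 CPM in C64 without IAA and 12.2 and 14.3 CPM with IAA in run 2, 31.3 and 40.4 against 17 and 6.98 CPM with heat shock, 56.2 and 29.5 against 9.24 and 7.58 CPM in run 3, 31.1 and 16.2 against 4.84 and 6.47 CPM with retinoic acid, 45.5 and 25.9 against 6.75 and 7.47 CPM in B8 run 6, and 69.4 and 56.7 against 16.1 and 15.0 CPM in B8 run 8. In every context both IAA libraries lay below both of their controls. The shared log2 fold change was -2.14 ± 0.17 (SE, adjusted p = 7.76e-09), and the 6 contexts gave -2.59 to -1.57. Its promoter holds both of the short motifs that were searched for, and it is shown with 3 others of genes that fell, which hold one each. Capitals mark TATAAA between 45 and 15 bases before the start and CTCTTT within 15 bases of it, both on the gene's strand. The windows run from 45 bases before the start to 15 bases from it, from RefSeq promoters on GRCm38.p6.
1110038B12Rik (chr17:34952457-34952516, minus strand): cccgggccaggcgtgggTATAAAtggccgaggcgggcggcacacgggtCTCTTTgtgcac
Rps9 (chr7:3703996-3704055, plus strand): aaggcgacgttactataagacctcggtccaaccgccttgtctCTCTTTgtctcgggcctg
Fscn1 (chr5:142960310-142960369, plus strand): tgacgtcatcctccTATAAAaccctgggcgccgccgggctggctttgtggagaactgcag
Rnd3 (chr2:51149097-51149156, minus strand): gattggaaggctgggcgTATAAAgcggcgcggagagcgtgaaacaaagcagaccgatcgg

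Of the 131 genes that fell, 100 had a promoter in the RefSeq table, as did 13766 of all 17873 genes. TATAAA in that position was found for 4 of the 100 (4.0%) and for 2.05% of all, and CTCTTT at the start for 5 (5.0%) and 1.22% of all. TATAAA anywhere in the 300 bases, on either strand, was found for 15 (15.0%) and for 10.5% of all. Of the genes that rose 8 had a promoter, and 0, 0 and 1 of them held these motifs. A gene counted if any of its promoters held the motif. Klhl13, Nr5a2 and Morf4l2 held CTCTTT at starts 79275, 6818 and 2535 bases from the gene's 5' end. Mknk2 held TATAAA at a start 1819 bases from it. A match is a description of letters and not a binding site.

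Hspa8 and Pabpc4, which had over 100 CPM in every control, fell as well. Hspa8, the constitutive cytosolic HSP70, had 617 and 498 CPM against 167 and 167 with IAA in C64 run 2, 613 and 683 against 321 and 389 with heat shock, 415 and 220 against 113 and 43.4 in run 3, 330 and 168 against 91.9 and 52.0 with retinoic acid, 271 and 174 against 76.0 and 63.1 in B8 run 6 and 372 and 325 against 118 and 106 in B8 run 8. No IAA library of a context reached a control of that context. The shared log2 fold change was -1.62 ± 0.15 (adjusted p = 1.58e-07), with -0.87 in heat shock and -2.02 to -1.64 in the other contexts. Pabpc4, a cytoplasmic poly(A)-binding protein, had 340 and 346 CPM against 108 and 106 in C64 run 2, 101 and 186 against 61.0 and 84.6 with heat shock, 391 and 186 against 108 and 65.2 in run 3, 234 and 156 against 84.3 and 60.7 with retinoic acid, 229 and 140 against 58.2 and 65.6 in B8 run 6 and 398 and 380 against 108 and 108 in B8 run 8. Its controls and IAA libraries did not overlap in any context either, and the shared change was -1.54 ± 0.13 (adjusted p = 3.09e-08). Its paralog Pabpc1 fell by 0.96 on the log2 scale (SE 0.12, adjusted p = 2.26e-05).

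**Figure D1:**
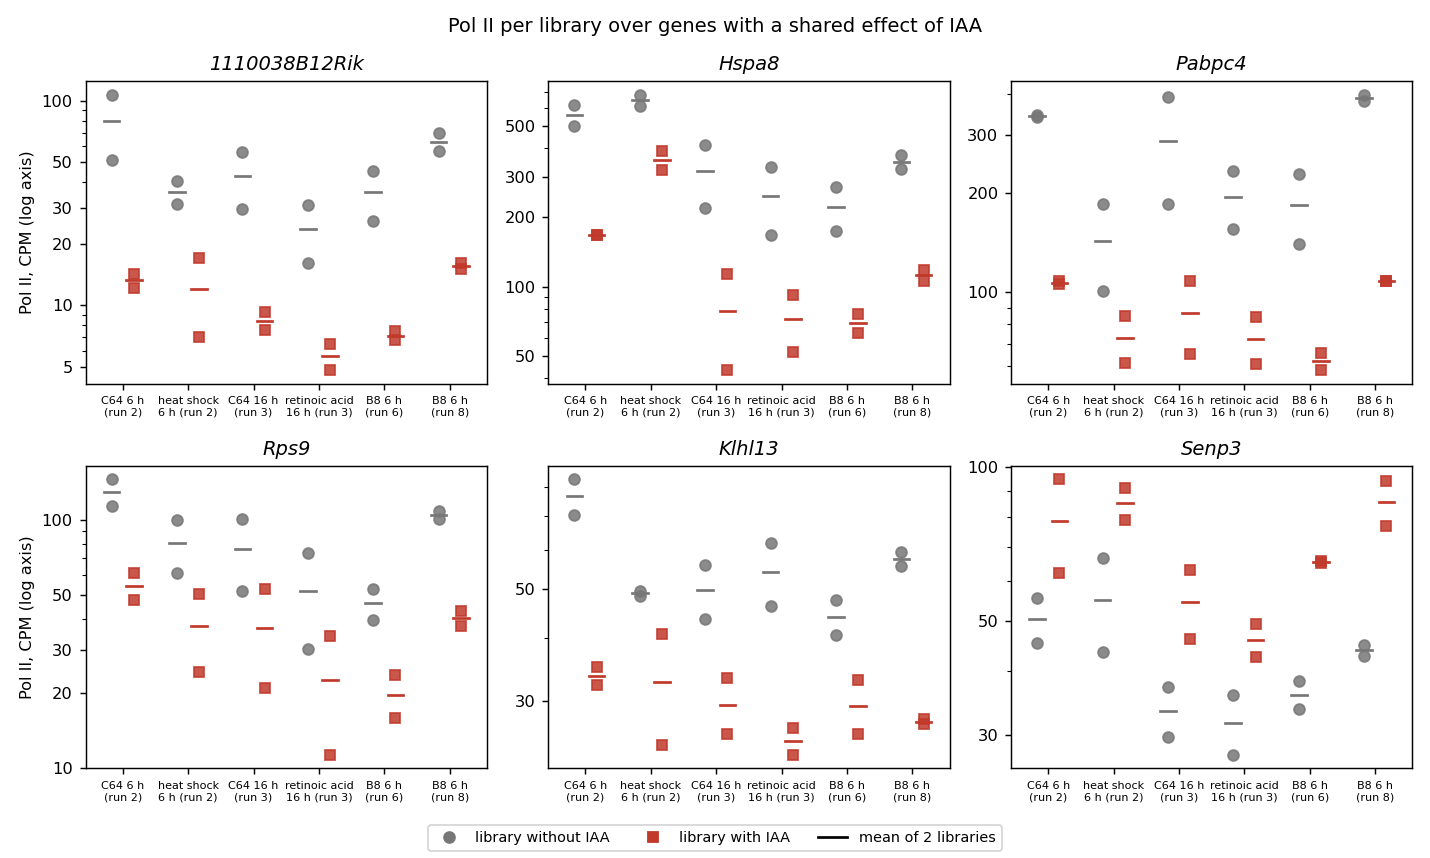
Pol II level of each library in CPM (log axis) over 6 genes, by context; circles are libraries without IAA, squares libraries with IAA and bars the mean of 2 libraries. For 1110038B12Rik, Hspa8, Pabpc4 and Klhl13 both IAA libraries lie below both controls in all 6 contexts and for Senp3 above them, whereas for Rps9 this holds in 4 contexts.

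Rps9, a protein of the small ribosomal subunit, had similar estimates in all contexts. The 6 context values ran from -1.38 to -1.05 with an SD of 0.12, around a shared change of -1.20 ± 0.18 (adjusted p = 0.000249). Standard errors of its single contexts, 0.45 to 0.61, exceeded that SD, so that an equal effect in all contexts is not shown. Its replicates differed within groups, with 52.6 and 20.9 CPM for IAA in run 3 beside 101 and 51.8 CPM for its control, so that libraries overlapped in 2 of the contexts. Among genes that fell by more than 0.5 on the log2 scale, the SD between contexts was smallest for Rpl3 (0.11), Rps9, Rplp1 (0.13), G3bp1 (0.14), which assembles stress granules, and Ifrd1 (0.15). Klhl13, a substrate adaptor of a CUL3 ubiquitin ligase, fell by 0.90 (SE 0.10, adjusted p = 4.05e-06), with -1.19 to -0.58 between contexts. Snx5, a sorting nexin of the endosome, fell by 1.39 (SE 0.15, adjusted p = 3.62e-06) and varied more, from -1.95 in B8 run 6 to -0.57 in heat shock.

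The others of the 14 largest falls were Dipk1b at -1.84 ± 0.23, the snoRNAs Snord104 at -1.69 ± 0.29 and Snora43 at -1.66 ± 0.32, Lrrc75a at -1.31, Rab26, a small GTPase, at -1.15, Slc35b2, a Golgi transporter of the sulfate donor, at -1.11, Rabggtb, a subunit of the prenyltransferase of Rab proteins, at -1.08, 4930555B11Rik at -1.05 and the lysosomal protease Ctsl at -1.01. Their adjusted p-values ran from 6.11e-06 for Ctsl to 0.00424 for 4930555B11Rik. The snoRNAs rested on few counts, with Snora43 between 0 and 13.5 CPM over the libraries, and Dipk1b overlapped Gm20532 over 89.3% of its length. Counting took no account of strand and left out fragments that lay in more than 1 gene, so that values of overlapping genes are uncertain, as are those of genes with near-identical copies elsewhere, which include Npm1 and many ribosomal protein genes.

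Senp3, a SUMO protease of the nucleolus, rose in every context by 0.54 to 0.96, with both IAA libraries above both controls in each. It had 55.5 and 45.4 CPM against 94.7 and 62.1 with IAA in C64 run 2, 66.4 and 43.6 against 91.2 and 78.9 with heat shock, 37.2 and 29.7 against 63.1 and 46.2 in run 3, 35.9 and 27.5 against 49.4 and 42.7 with retinoic acid, 33.7 and 38.3 against 65.0 and 65.6 in B8 run 6 and 45 and 42.9 against 76.8 and 94.0 in B8 run 8. The shared change was 0.71 ± 0.10 (adjusted p = 7.78e-05). The largest rise was that of the p53-induced non-coding RNA Trp53cor1 at 0.98 ± 0.18 (adjusted p = 0.00447), but its contexts ranged from 0.05 in heat shock to 2.71 in B8 run 6. The remaining rises were Hcfc1r1 and the Src-family kinase Lyn (both 0.66), the pseudogene Cyp2c52-ps (0.60), the ectonucleotidase Nt5e (0.57), Fam120c (0.49), Ntn3, a netrin (0.45), the peroxisomal reductase Pecr (0.43), Acap1 (0.40), the kinase Cdkl3 (0.38), the ETS factor Elf1 (0.33) and M1ap (0.32). The count of 13 fell to 1 without B8 run 8, to 3 without B8 run 6, and to 7 without C64 run 2 or C64 run 3. Single libraries moved it to 4 without replicate b of B8 control in run 8, to 6 and 8 without replicates a and b of B8 IAA in that run, to 7 without replicate a of B8 control in run 8 or replicate 1 of either B8 arm in run 6, and to 21 without replicate a of heat shock with IAA. The rises were thus fewer and depended more on the B8 libraries.

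**Figure D2:**
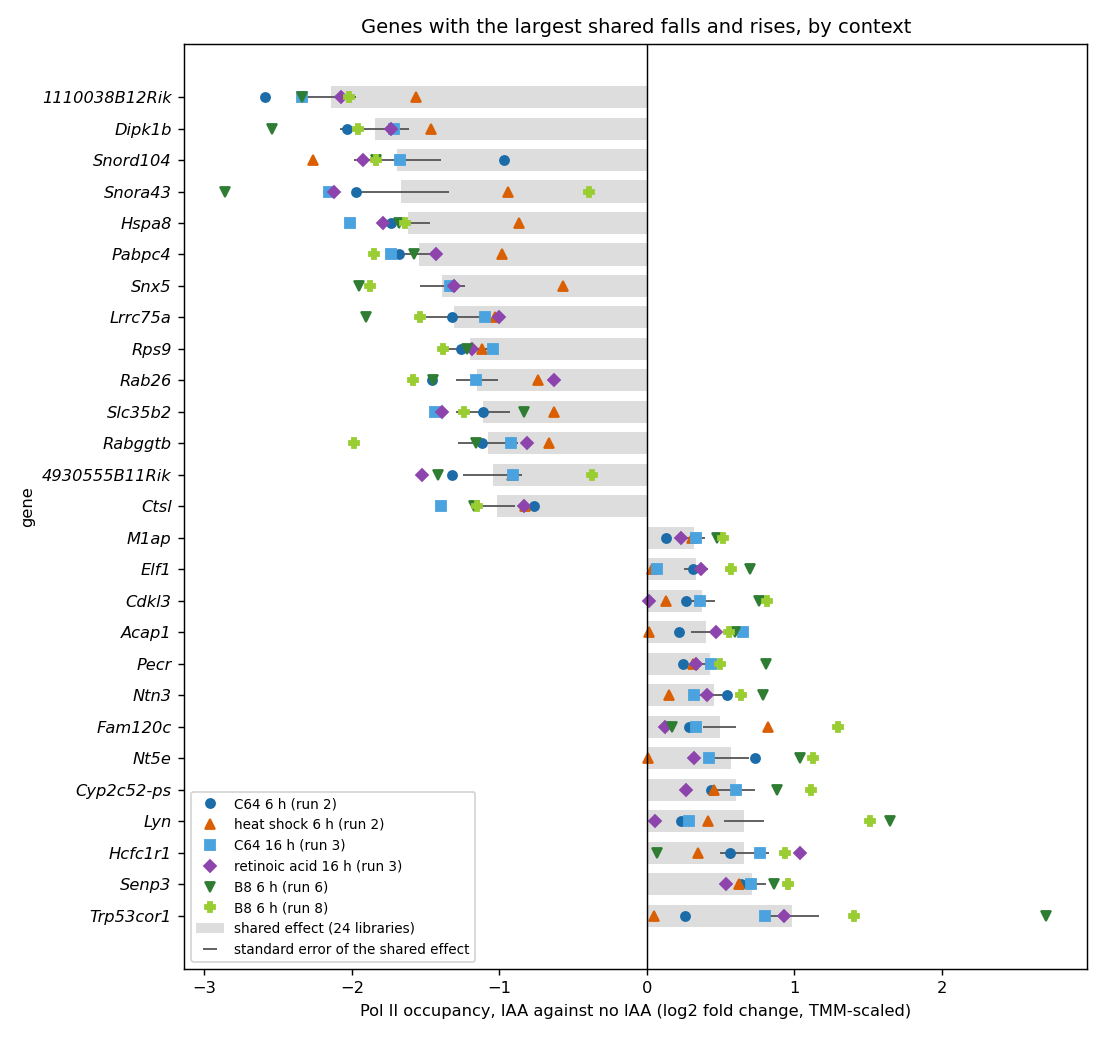
Log2 fold change of Pol II, IAA against no IAA, for the 14 largest shared falls and the 13 shared rises; bars show the shared effect over 24 libraries, lines its standard error and points the 6 contexts. The points of a gene stay on one side of 0 for all 27 genes, with the widest spread for Trp53cor1 (0.05 to 2.71) and a narrow one for Rps9 (-1.38 to -1.05).

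How far the contexts agreed was read first from the signs. Of the 131 genes that fell, 124 were below 0 in all 6 contexts and 7 in 5 of them, and all 13 that rose were above 0 in 6. These signs took part in choosing the genes. Over all genes tested, 5.29% were below 0 in all 6 contexts and 2.63% above 0. In the top 10% by CPM 17.7% were below 0 in all 6, so that all genes are a low background for genes with much Pol II. Both IAA libraries lay below both controls in all 6 contexts for 25 of the 131 genes and for 29 of all genes (0.162%), in 5 contexts for 48 (0.448% of all genes), in 4 for 41 (1.75% of all genes) and in 3 for 17 (6.03% of all genes). Of the genes that rose, 2 had both IAA libraries above both controls in all 6 contexts (Senp3 and M1ap), and these were also the only 2 among all genes (0.0112%).

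The SD between the 6 contexts had a median of 0.27 over the genes that fell, 0.31 over those that rose and 0.29 over all genes tested. A single context's effect had a median standard error of 0.30 in each C64 context, 0.37 in B8 run 6 and 0.33 in B8 run 8, so that for most genes the spread between contexts was of the size of the error within them. The median effect over the 131 genes was -0.46 in C64 run 2, -0.46 in heat shock, -0.61 in C64 run 3, -0.43 with retinoic acid, -0.54 in B8 run 6 and -0.81 in B8 run 8. Fitted alone, with 4 libraries each, the contexts called very different numbers of genes: 7 genes fell and 0 rose in C64 run 2, 0 changed in heat shock, C64 run 3 or retinoic acid, 9 fell and 8 rose in B8 run 6, and 1733 fell and 1020 rose in B8 run 8. At an unadjusted p under 0.05 these fits of edgeR gave 354, 160, 319, 104, 1420 and 4317 genes, in the same order. B8 run 8 also stood apart in its scaling, with TMM factors of 0.847 and 0.870 for the controls and 0.992 and 0.977 for the IAA libraries, and the part of this in its many calls was not tested.

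To obtain values that played no part in the choice, each context was left out in turn, genes were called in the 20 libraries of the other 5, and their change was read in the 4 libraries left out. Of 84 genes that fell in the others and could be measured in C64 run 2, 83 were below 0 there, with a median of -0.51, while 49.2% of all genes were below 0. In heat shock 94 of 96 were below 0 (median -0.42, against 51.7% of all genes). In C64 run 3 this held for 69 of 70 (median -0.71, 48.5% of all genes), and with retinoic acid for 121 of 138 (87.7%, median -0.35, 46.5% of all genes). In B8 run 6 it held for 84 of 88 (median -0.52, 53.1% of all genes) and in B8 run 8 for 47 of 50 (median -0.84, 47.0% of all genes). Falls therefore carried over to every context left out, least often to retinoic acid. In the top 10% of genes by CPM the median effect was -0.27 in B8 run 8 and between -0.10 and 0.04 in the other contexts. The order of these shares was not tested, and run 2, run 3 and B8 each supply a pair of contexts, so that a context left out shared its run or its cell line with others.

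Genes that rose in 5 contexts carried over less evenly. Above 0 in the context left out were 7 of 7 in C64 run 2, 13 of 19 in heat shock with a median of 0.06, 6 of 7 in C64 run 3, 14 of 16 with retinoic acid, 3 of 3 in B8 run 6 and 1 of 1 in B8 run 8. Some 46 genes fell in all 6 of these fits, and 44 of them had the same sign in every context left out. Senp3 was the gene that rose in all 6.

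**Figure D3:**
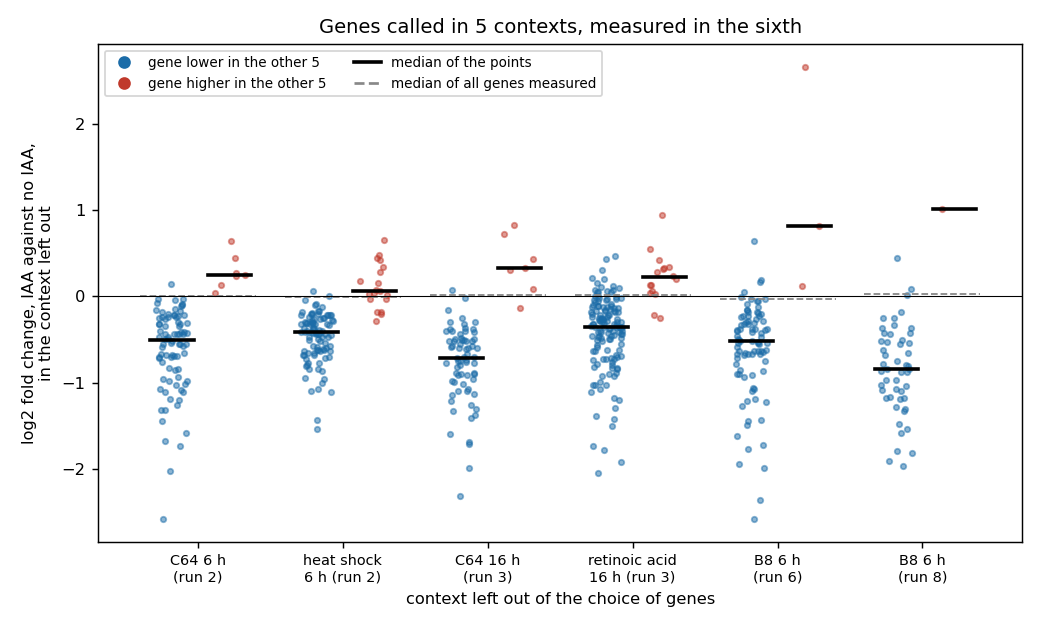
Log2 fold change in the context left out for genes that fell (left points) or rose (right points) in the other 5 contexts; short black lines are medians and dashed lines the median of all genes measured in that context. Medians of the genes that fell lie between -0.84 in B8 run 8 and -0.35 with retinoic acid, and of 138 such genes measured with retinoic acid 17 lie at or above 0.

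When the 6 context effects themselves served as the replicates (limma on 6 values a gene), so that the spread between contexts became the error, 26 genes fell and 1 rose. Of these, 24 and 1 were among the genes called over the 24 libraries. They included 1110038B12Rik and Rps9 (both adjusted p = 0.00272), Dipk1b (0.00407), Pabpc4 (0.00584), Hspa8 (0.00963), Nap1l1 (0.0167), Ctsl and Lrrc75a (both 0.0192), Npm1 (0.0368), Actg1 (0.0368) and, as the rise, Senp3 (0.0351). Of the 14 largest falls, those of Snora43, Rabggtb and 4930555B11Rik did not pass in this reading.

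Correlation between contexts over the whole genome was weak. Across 17873 genes the effects of any pair of contexts had a Pearson's r between -0.0959 and 0.145 (15 pairs, median 0.102). In the C64 contexts the SD of effects over genes was 0.29 to 0.35, beside a median standard error of 0.30. It was 0.68 in B8 run 6 and 0.53 in B8 run 8, beside 0.37 and 0.33. Error of that size lowers r, so that a low r over all genes cannot show that the effects disagree. Among the 1788 genes with the highest CPM (the top 10%) r ranged from 0.0617 to 0.707, with a median of 0.372. It was 0.707 for C64 run 3 and retinoic acid, which share a run, 0.629 between C64 runs 2 and 3, 0.594 for C64 run 2 and heat shock, which also share one, and 0.541 between the B8 runs, and it was lowest between heat shock and B8 run 6. The values are across genes within contexts that share runs and depth, and genes are not independent replicates.

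The genes that fell were among those with the most Pol II. By CPM per kb of gene, 58 of the 1788 genes in the top 10% fell (3.24%), 20 in the next 10% (1.12%) and 0 in the lowest. Low counts limit what could be called among genes with little Pol II. In the lowest 10% the median effect was -0.65 in B8 run 6 and 0.18 in B8 run 8, and between -0.02 and 0.20 in the C64 contexts, so that B8 run 6 moved apart where levels were lowest.

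Of the 27 gene lists chosen for this tissue and treatment, 12 had at least 1 gene that fell and 0 had a gene that rose. Their shares are set beside all genes tested, while in the top 10% by CPM per kb 3.24% of genes fell. Chaperones of the endoplasmic reticulum fell most often for their number: 4 of 16 (25.0%) against 0.733% of all genes, with a median of -0.44 against 0.00 for all genes tested and medians below 0 in each context. They were P4hb, a disulfide isomerase (-0.74 ± 0.11, adjusted p = 0.00018), the HSP70 Hspa5 (-0.68 ± 0.12, adjusted p = 0.00143), Pdia6 (-0.68 ± 0.13, adjusted p = 0.00672) and the HSP90 Hsp90b1 (-0.50 ± 0.12, adjusted p = 0.0464), which overlaps 1810014B01Rik. P4hb had 265 and 197 CPM against 127 and 126 with IAA in C64 run 2 and 179 and 108 against 126 and 135 in B8 run 6, where its libraries overlapped. The list's median was -0.52 with retinoic acid and -0.12 in B8 run 6. With the run 3 block 10 of the 16 fell, against 1.45% of all genes, and without replicate 2 of B8 control in run 6 this count was 7.

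Ribosomal protein genes leaned the same way but few passed the test. Of 42 genes of the large subunit 3 fell (7.14%, Rpl3, Rpl23 and Rplp1), 39 were below 0 and the median was -0.29. Of 32 genes of the small subunit 5 fell (15.6%, among them Rps9, Rps3 and Rps7), 28 were below 0 and the median was -0.33. The contexts differed in size: the large-subunit median was -0.62 in B8 run 8, -0.41 in heat shock, -0.37 in C64 run 2, -0.36 in B8 run 6, -0.19 in C64 run 3 and 0.03 with retinoic acid. With the run 3 block 15 and 10 genes fell, and without B8 run 8 these counts were 0 and 2. Leaving out single libraries moved the large-subunit count to 1 without replicate 1 of retinoic acid, to 6 without replicate 1 of C64 IAA in run 3, to 7 without replicate 2 of retinoic acid, and to 10 without replicate 2 of C64 control in run 3 or replicate 1 of retinoic acid with IAA.

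Genes that host snoRNAs were those that hold, by coordinates and on the same strand, a gene whose symbol starts with Snord, Snora or Scarna. Hosts of snoRNAs with other names are not found in this way. The hosts were split by their own symbols, those named Snhg, Gas, Gm or Rik being set apart as non-coding. Among the 69 other hosts, most of which code for proteins but which include the non-coding Zfas1 and Dancr, 9 fell (13.0%, median -0.20), among them Hspa8, Snx5, Rabggtb, Eif4a2, an RNA helicase of translation initiation (-0.89), and Tpt1 (-0.77), and 20 fell with the run 3 block and 14 without replicate 1 of retinoic acid with IAA. Among the 15 hosts with such symbols 3 fell (20.0%, median -0.38), namely 1110038B12Rik, 2700038G22Rik (-0.94 ± 0.22) and 2410006H16Rik (-0.76 ± 0.11). The snoRNA genes took up a median of 1.43% and 3.17% of the hosts' length. Translation factors and poly(A)-binding proteins had 5 of 42 lower (11.9%, median -0.15), among them Pabpc4, Pabpc1 and Eef1b2 (-0.77 ± 0.13). Hosts and ribosomal protein genes share members, so that these counts are not independent of each other.

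Genes of glucose uptake and glycolysis had 5 of 25 lower (20.0%, median -0.23): the glucose transporters Slc2a1 (-0.59 ± 0.11) and Slc2a3 (-0.39 ± 0.07), the adenylate kinase Ak4 (-0.59 ± 0.10), the isomerase Gpi1 (-0.45 ± 0.08) and the pyruvate kinase Pkm (-0.50 ± 0.12). Without B8 run 8 only 2 of the 25 fell. Gapdh had -0.26 ± 0.11 (adjusted p = 0.442). Cytosolic chaperones of the HSP70, HSP90 and HSP110 families had 3 of 33 lower (9.09%), namely Hspa8, Hsp90ab1 (-0.93 ± 0.16) and Hsph1 (-0.53 ± 0.11), at a list median of -0.07. The stress-inducible Hspa1a had -0.39 ± 0.32 (adjusted p = 0.763) and Hsp90aa1 -0.07 ± 0.13 (adjusted p = 0.928).

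Pluripotency genes had 2 of 33 lower, Tet2, which oxidises 5-methylcytosine (-0.52 ± 0.09), and the nuclear receptor Nr5a2 (-0.47 ± 0.11), at a median of -0.17, and 26 were below 0. The 2 became 1 without replicate a of heat shock, replicate 1 of C64 control or of C64 IAA in run 3, replicate 1 of either B8 arm in run 6 or any library of B8 run 8. Pou5f1 had 0.01 ± 0.18 and Nanog -0.21 ± 0.14, with adjusted p-values of 0.993 and 0.684. The 25 markers of differentiated cells went the other way, with 0 called, 4 below 0 and a median of 0.10. Their summed level was 406.7 to 819.5 CPM (median 586) without IAA and 555.4 to 876.8 CPM (median 616.5) with IAA. In B8 run 8 it was 406.7 and 429.8 CPM in the controls and 557.7 and 624.7 CPM with IAA, and the list's median there was 0.65, while the other contexts lay between -0.18 and 0.14. The part of this in the other results was not tested.

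Histone chaperones had 2 of 16 lower (Npm1 at -0.97 and Nap1l1 at -0.95), nucleolar and ribosome biogenesis proteins 2 of 37 (Npm1 and Taf1d at -0.77), cytoskeletal genes 2 of 21 (Actg1 at -0.76 and Tubb2b at -0.62), DNA replication genes 1 of 32 (Rfc4 at -0.81) and genes of the methyl cycle 1 of 16 (Ahcy at -0.92). The nucleolar count became 1 without replicate b of heat shock, replicate 1 of retinoic acid, replicate 1 of B8 control in run 6 or replicate a of B8 IAA in run 8. The cytoskeletal count became 1 without replicate a of C64 control or either C64 IAA library in run 2, replicate 1 of C64 control or either C64 IAA library in run 3, replicate 1 of B8 control or replicate 2 of B8 IAA in run 6, or replicate a of B8 IAA in run 8. Genes of TFIID and the general factors of Pol II had 0 of 30 called, with values between -0.24 and 0.33, and the 22 genes of TBP, its paralogs, its regulators and Pol III factors also had 0. Tbp itself had 0.17 ± 0.10 (adjusted p = 0.614). None of the 22 subunits of Pol II and Pol III and none of the 27 elongation and pausing factors was called. Nuclear genes of oxidative phosphorylation (43), proteasome subunits (31), TRiC subunits (8), mitochondrial chaperones (11), splicing factors (33), immediate-early genes (23), targets of the aryl hydrocarbon receptor and NRF2 (23) and retinoid genes (17) likewise had 0 called. Without replicate 2 of retinoic acid 1 of the aryl hydrocarbon receptor and NRF2 targets fell, and without replicate 2 of B8 control in run 6 1 of the splicing factors. In all, 39 of the 131 genes that fell belonged to a list or hosted snoRNAs by the symbol rule above.

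The p53 targets and the integrated stress response had no gene called in the shared fit, and their medians took both signs between contexts. The 30 p53 targets had medians of 0.41 in C64 run 3 and 0.38 with retinoic acid, 0.06 in C64 run 2, -0.09 in heat shock, -0.29 in B8 run 6 and -0.15 in B8 run 8. The 25 genes of the integrated stress response, which adjusts translation and amino acid supply, had medians of 0.24 and 0.39 in C64 run 3 and retinoic acid, -0.06 in C64 run 2, -0.21 in heat shock, -0.06 in B8 run 6 and -0.93 in B8 run 8. The shared medians of 0.06 and -0.07 therefore stand for contexts on both sides of 0.

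**Figure D4:**
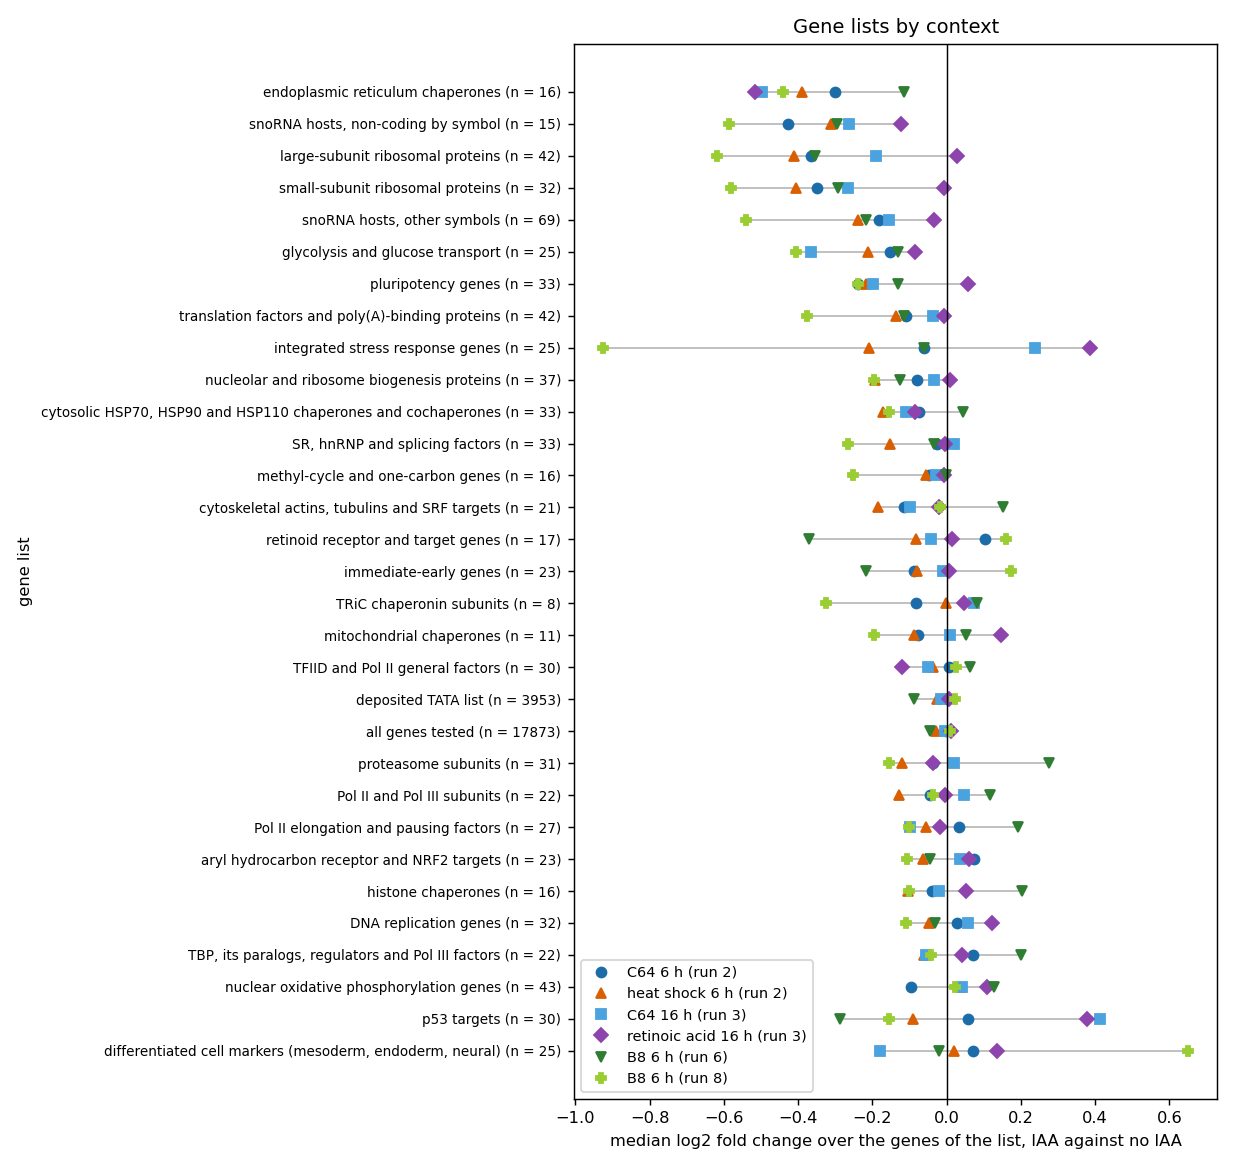
Median log2 fold change of each gene list, of the snoRNA hosts, of the deposited TATA list and of all genes tested, by context; n is the number of genes tested and grey lines join the lowest and highest context. Chaperones of the endoplasmic reticulum lie below 0 in all 6 contexts (-0.52 to -0.12), and the integrated stress response spans -0.93 to 0.39.

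The authors' deposited TATA list held 3953 tested genes, of which 67 fell (1.69%) and 2 rose, against 64 (0.46%) and 11 of the 13920 genes outside it. The list is much wider than the motif search, which found TATAAA in position for 2.05% of genes with a promoter. It leaves out 1110038B12Rik, whose window above holds TATAAA, and includes Rps9, whose window holds TATAAG but no exact TATAAA. The study reported no difference in Pol II occupancy or nascent RNA (NET-seq) upon TBP depletion, whether or not promoters had a defined TATA box. It showed average plots and heatmaps around gene starts in C64 cells. The counts here are of whole genes over all 6 contexts, so they are not the same measure. The medians of the genes on the list and outside it were both 0.00. Within the top 10% by CPM per kb, 31 of 420 genes on the list fell (7.38%) and 27 of 1368 outside it (1.97%). Without B8 run 8 the 67 became 29, with the run 3 block 113, and without replicate 1 of B8 control in run 6 they were 43.

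Some genes that fell lie side by side. Among the 144 called genes 18 (12.5%) overlapped another called gene or lay within 5000 bases of one, in 9 pairs that each moved in one direction. Of the 108 tested genes that near to a called gene 18 were called (16.7%), against 0.806% of all. Slc35b2 and Hsp90ab1 are 103 bases apart on opposite strands, and Lrrc75a and 2410006H16Rik 76 bases. Fragments from one gene can lie in the other where genes overlap or abut, and the part of this in the pairs was not tested.

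Whether the IAA effect differed between contexts was tested gene by gene over the 6 contexts. It did for 4 genes (0.0224%) at an adjusted p under 0.05 and for 503 at an unadjusted p under 0.05. They were Milr1, an immunoglobulin-like receptor of mast cells (adjusted p = 0.000872), Lyn (0.0158), Trp53cor1 and Polg2, the accessory subunit of the mitochondrial DNA polymerase (both 0.0499). Each changed more in both B8 runs than in any C64 context, and Trp53cor1 also had 0.80 and 0.93 in the 16 h contexts of C64. With the run 3 block 12 genes differed, and without B8 run 6, or with C64 alone, 0 did. The 4 became 1 without any single B8 library or replicate b of C64 IAA in run 2. They became 2 without replicate b of C64 control, replicate a of C64 IAA, replicate b of heat shock or replicate a of heat shock with IAA in run 2, or without either C64 control or either retinoic acid library without IAA in run 3.

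Milr1 had 53.1 and 55.9 CPM in B8 control of run 6 and 297 and 281 CPM with IAA, and 65.2 and 64.1 against 142 and 161 CPM in run 8. In the C64 contexts it lay between 44.8 and 75.6 CPM in all 16 libraries, with or without IAA. The log2 fold changes were 2.41 and 1.23 in B8 and -0.13 to 0.21 in C64. Polg2 overlaps Milr1 by 542 bases on the other strand of chromosome 11, and it rose by 1.76 and 1.03 in B8 against -0.05 to 0.21 in C64. Lyn had 94.4 and 101 CPM against 309 and 305 with IAA in B8 run 6 and 46.9 and 44.3 against 129 and 131 in B8 run 8, changes of 1.65 and 1.51. In C64 its changes were 0.06 to 0.42, and it was thus called as a shared rise although B8 set most of it.

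Trp53cor1 and Cdkn1a lie near each other on chromosome 17, and both are induced by p53. Trp53cor1 had 70.0 and 50.7 CPM against 388 and 405 with IAA in B8 run 6, 46.9 and 45.7 against 119 and 127 in B8 run 8, 55.7 and 46.1 against 114 and 64 in C64 run 3, and 55.6 and 48.9 against 123 and 76.7 with retinoic acid. It changed by 0.26 and 0.05 in C64 run 2 and heat shock. Cdkn1a, a cell cycle inhibitor, changed by -0.97 and -1.03 in the B8 runs, by 0.70 and 0.73 in the 16 h contexts and by 0.21 and -0.15 in the 6 h contexts of C64. The difference between contexts of Cdkn1a did not pass (adjusted p = 0.141), nor did that of Erdr1 (0.141), at -1.18 and -1.42 in B8 and -0.12 to 0.12 in C64, or of Polr2a, the largest Pol II subunit (0.382), at 1.52 and 1.30 in B8 and -0.14 to 0.13 in C64.

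**Figure D5:**
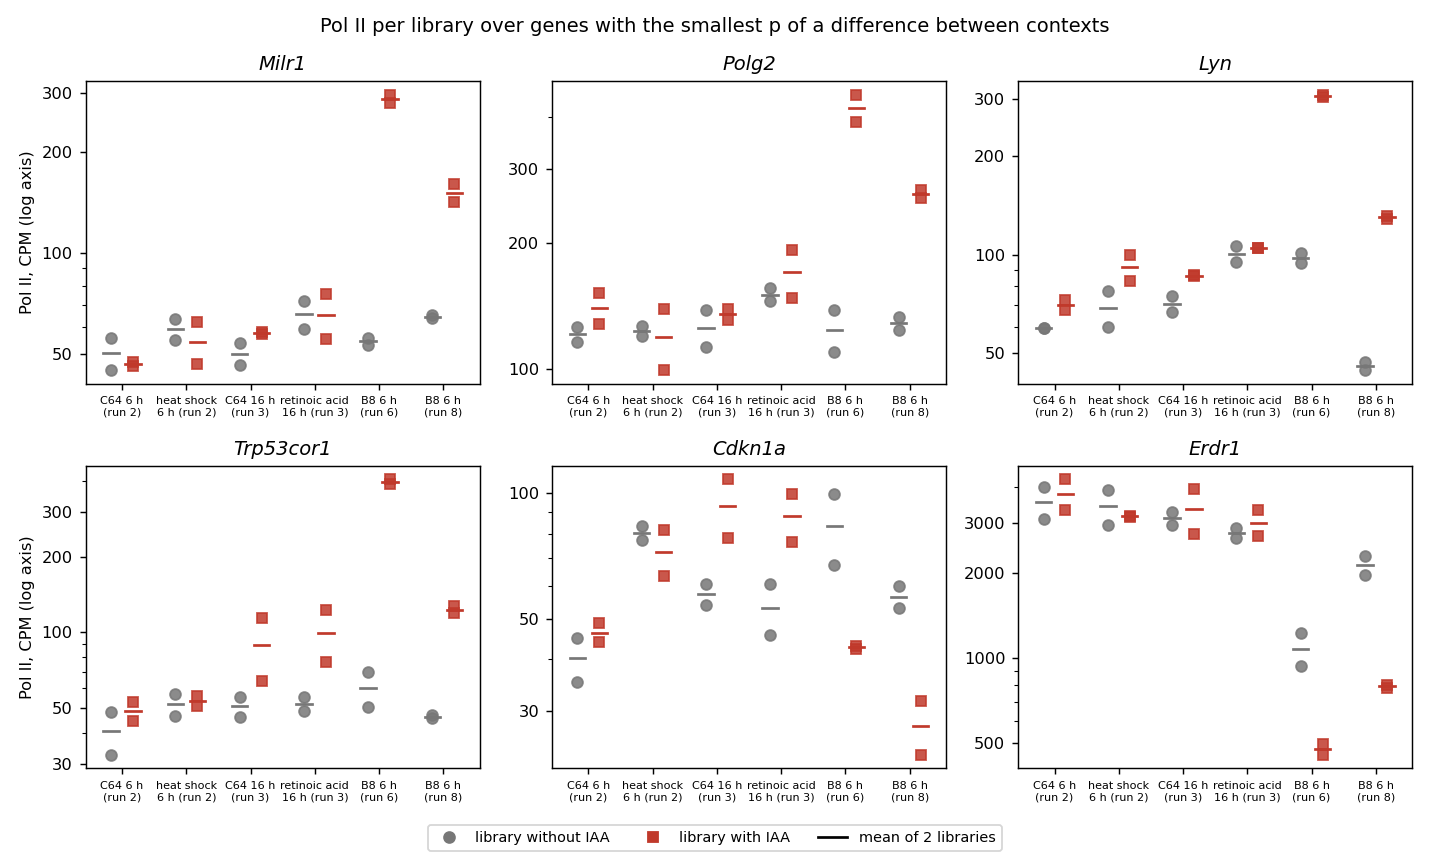
Pol II level of each library in CPM (log axis) for the 6 genes with the smallest p of a difference between contexts; circles are libraries without IAA, squares libraries with IAA and bars the mean of 2 libraries. Milr1, Polg2, Lyn and Trp53cor1 are highest with IAA in B8 run 6 (297 and 281 CPM for Milr1), while Erdr1 and Cdkn1a are lower with IAA in both B8 runs.

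Averaged contrasts between contexts called few genes in the main fit. The effect at 16 h minus that at 6 h in C64 passed for 0 genes (0.0%), with 260 at an unadjusted p under 0.05. It passed for 1 gene by edgeR's likelihood-ratio test, for 0 by DESeq2 and for 9 with a replicate block in all contexts. The gene with the smallest p was Adcy4 (1.23 ± 0.24, adjusted p = 0.898). The effect with heat shock or retinoic acid minus that without passed for 0 genes as well (0.0%), with 179 at an unadjusted p under 0.05 and 0 by the likelihood-ratio test and DESeq2. There Ahcy, which hydrolyses S-adenosylhomocysteine, had the smallest p (1.07 ± 0.30, adjusted p = 1.0), at -1.20 and -1.62 in the unstimulated contexts and 0.04 and -0.73 in heat shock and retinoic acid. The effect in B8 minus that in C64 at 6 h passed for 2 genes (0.0112%). They were Milr1 (1.92 ± 0.25, adjusted p = 0.00252) and Lyn (1.35 ± 0.22, adjusted p = 0.0291). This contrast passed for 9 genes with the run 3 block, 33 with a block in runs 2 and 3, and 210 with one in all contexts. The 2 became 0 without replicate b of C64 control or either C64 IAA library in run 2, 1 without replicate a of that control, either C64 control library of run 3 or any single B8 library, and 4 without either library of retinoic acid with IAA. The median standard error of a single context, 0.30 to 0.37, limits which differences between contexts could be called.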

How the data were processed

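The deposited count tables hold raw counts of fragments per gene, counted by the authors with featureCounts over whole genes, without strand, after alignment to mm10 by Bowtie2 (per the methods, PCR duplicates were kept and reads of a run subsampled). FastQC, bedtools and deepTools are also named in the submitters' processing notes. The deposited table of read numbers (other values) gave the spike-in share, and the deposited TATA list (other values) gave gene symbols. Tables of controls alone repeat columns of those used. The 24 columns were used once each, and those of run 2 and B8 run 8 could be tied to a group but not to a numbered sample, so they are called a and b here. The replicate 1 library of B8 control in run 6 has no spike-in values used here.

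Genes were kept with filterByExpr (minimum count 20) and tested with edgeR 4.0.16 in R 4.3.3 (TMM, quasi-likelihood F test, Benjamini-Hochberg threshold 0.05), with context as a block for the shared effect and 12 group means for differences between contexts. Errors are standard errors of the log2 fold change. Where each context was left out in turn, its own 4 libraries were filtered and fitted alone. The likelihood-ratio test, limma 3.58.1 and DESeq2 1.42.0 were run as alternatives, and the fits were tested on simulated data. In run 3 same-numbered libraries deviated together in all 6 pairs of groups (r of residuals 0.38 to 0.602), the numbers being those of the labels, so a fit with them as a block is given where it changes a count. The contexts, lists and rules were chosen with earlier results of these data known. Genes are named by rule: the 15 largest falls and rises with one sign in all 6 contexts, the 10 smallest interaction p, the 5 smallest p of each contrast, the 5 smallest spreads among changes over 0.5, up to 4 genes a list and a few genes of the study's question, of which some are not reported here; other genes named were chosen after their values were seen. The labels give 25 µM retinoic acid, and the study's methods a far lower concentration.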

Additional observations from a re-analysis of the deposited data

Results flagged for a closer look

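Results are given here because the effect of IAA differed between contexts by a test of the difference itself. Over the 6 contexts, the test of equal effects gave an adjusted p of 0.000872 for Milr1, 0.0158 for Lyn, 0.0499 for Trp53cor1 and 0.0499 for Polg2 (edgeR's quasi-likelihood test). In each the rise in both B8 runs exceeded that in all 4 C64 contexts. In the contrast of B8 with C64 at 6 h, Milr1 had an adjusted p of 0.00252 and Lyn of 0.0291, the difference being 1.92 and 1.35 on the log2 scale. Cell line cannot be told apart from run in these comparisons, and B8 is 1 clone. Groups of 2 libraries are too small for a test of outlying samples.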

How the results depend on the processing

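All 131 genes that fell stayed below 0, and all 13 that rose above 0, in each of the 49 settings in which they were tested. These settings reuse all or most of the libraries in which the genes were chosen, so the signs are no independent support. The number past the threshold moved. Ctsl, Hspa8, Klhl13, Odc1, Pabpc1, Pabpc4, Rab26 and Snx5 passed in all 49. The counts before any change were 131 genes lower, 13 higher, 4 that differed between contexts, 0 for 16 h minus 6 h and 2 for B8 minus C64. In that order, where a count moved by more than 1.5 times, the likelihood-ratio test gave 215, 41, 25, 1 and 8. DESeq2 gave 282 lower, 41 higher, 31 between contexts and 12 for B8 with its own filtering, and 243, 43, 30 and 10 with edgeR's filter. Total counts gave 49 higher and 6 for B8, and shifted the median of all genes by 0.07. Spike-in scaling used each group's mean share for both of its libraries, and that of 1 library for B8 control in run 6. It gave 86, 5, 3398 between contexts and 1 for B8. It shifted the IAA effect of whole contexts (0.55 in B8 run 6, -0.60 in B8 run 8, -0.28 to 0.15 in C64). Spike-in shares also differed within groups (0.505% and 12% in C64 IAA of run 3), a spread that this scaling leaves out. RLE scaling and a minimum count of 50 each gave 2 between contexts. At least 20 counts in each library gave 41 higher and 5 for B8, no filter 5 for B8, equal weight of contexts 30 higher, and contexts as replicates 26 and 1. C64 alone gave 26 lower, 0 higher and 0 between contexts, and the 6 h contexts 4 for B8. Leaving out C64 run 2 gave 85, 7 and 1, C64 run 3 72 and 7, B8 run 6 3 higher and 0 between contexts, B8 run 8 53, 1 and 1, and heat shock 4 for B8. The settings chosen after seeing the data were the run 3 block (259, 32, 12 and 9 for B8) and leaving out B8 run 8 with replicate 2 of B8 control in run 6 (62, 2 and 0).

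A replicate block in all contexts gave 534, 107, 541, 9 and 210, and one in runs 2 and 3 gave 435, 81, 109 and 33 for B8. Both blocks, like that of run 3, kept all 131 and 13 genes past the threshold. In run 2 libraries of the same set (a or b) also deviated together in all 6 pairs of groups (r of residuals 0.0915 to 0.462). What a set marks is not stated, so that the main fit holds no term for it. In runs 6 and 8 the numbers or names are not shown to pair libraries (r of residuals -0.0349 in run 6 and 0.00689 in run 8). Polg2 passed as a shared rise with the run 3 block (adjusted p = 0.04).

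Leaving out single libraries gave 83 to 161 genes lower, 4 to 21 higher, 1 to 4 between contexts, 0 to 0 for 16 h minus 6 h, 0 to 4 for B8 minus C64 and 0 to 0 for stimulated minus unstimulated. A lone library is then assumed to vary like the others. Contrasts that need a context left out could not be fitted, and equal weighting and contexts as replicates apply to the shared effect only. Causes of the other moves were not tested. Of 4135 values of named genes' shared effects 3691 kept their side of the threshold, 423 lost and 21 gained it. None that passed in either setting changed sign, while 103 values of 16 genes that passed in neither did, most often Cdkn1a and Tbpl1.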
